A study of Mus musculus with 35 samples.

Results

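The Myc family and its partners comprise 8 listed genes, Myc, Mycn, Mycl, Max, Mxd1, Mxi1, Mnt and Mga, a group chosen on the Mycl signal itself, which is markedly lower in mouse lung after 20 and 40 ppm of inhaled styrene. Of the 8, 7 were named in the array's annotation, with 17 probe sets among the 45141 of the table, and each gene was read from its brightest probe set. They were read among 17097 genes in all. Max was not analysed here. Because Mycl was chosen for being lower, its values are given as a description and were not tested. The other 6 genes were tested.

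MYC, MYCN and MYCL are basic helix-loop-helix leucine zipper transcription factors that bind DNA, at E-box sites such as CACGTG, as heterodimers with MAX. They drive cell growth, ribosome production and proliferation. MXD1, MXI1, MNT and MGA compete for MAX and, as heterodimers with it, bind the same sites and mostly repress. In mouse, Mycl is known for its role in dendritic cells, and Mycn for its role in progenitors of the developing lung epithelium.

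Whole lung of adult male wild-type C57Bl/6 mice was profiled on 35 arrays. The groups were clean air (0 ppm) and styrene at 1, 5, 10, 20, 40 and 120 ppm, with 5 arrays each. Each mouse was caged singly for 1 inhalation of 6 h, and lungs were taken the next morning. The title number 15 is shared by an array of the 1 ppm group and an array of the 5 ppm group, so whether every array is its own animal is not known. All doses were set against the same 5 arrays at 0 ppm, so the comparisons with clean air are not independent of each other. In whole tissue, fewer cells of a type and less RNA per cell cannot be told apart.

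All values are log2 signals, and 1 unit is a doubling. Differences are a dose minus 0 ppm with limma's standard error (SE), and a gene is said to have risen or fallen where its Benjamini-Hochberg adjusted p, over all 17097 genes, was under 0.05 in limma. The brightest of the 23 nonspecific-hybridisation controls was the same probe set on all 35 arrays, and it served as a floor. It lay between 4.57 and 6.43 on the 30 arrays at 0 to 40 ppm, and between 6.71 and 7.36 at 120 ppm. If any array of the lower group was under this floor, a fold is written as "at least" and computed with such arrays raised to the floor. The 120 ppm arrays also differed in their poly-A spike-ins, which ran from 7.73 to 8.67, against 5.98 to 6.89 on the other arrays, and in the upper quartile of signal, 6.32 to 6.77 against 6.90 to 6.99. The part of these array differences in any result at 120 ppm was not tested. On 4 arrays, 2 at 0 ppm, 1 at 1 ppm and 1 at 20 ppm, the mean of 6 hepatocyte markers was 8.22 or more, and it was 5.88 or less on the other arrays. Without those 4 arrays the Mycl differences from 0 ppm described next were -1.36, -2.12, -1.83 and -1.55 from 10 to 120 ppm in order of dose, and those of Myc were 0.53, 0.99, 1.08 and 0.97, with limma adjusted p of 0.0293, 0.000135, 2.55e-05 and 3.3e-06.

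The stretch of 250 bases upstream of the start site in RefSeq (build GRCm38.p6) is shown for Mycl, the gene on whose signal the group was chosen, and for Mnt and Mga, the antagonists with an E-box or a close variant of one in it. The stretches are chr4:122995681-122995930, chr11:74830674-74830923 and chr2:119896978-119897227, all on the plus strand. Capitals mark the E-box CACGTG, the motif TATAAA, or the E-box variant CACGCG, which reads as CGCGTG when it lies on the other strand.
Mycl: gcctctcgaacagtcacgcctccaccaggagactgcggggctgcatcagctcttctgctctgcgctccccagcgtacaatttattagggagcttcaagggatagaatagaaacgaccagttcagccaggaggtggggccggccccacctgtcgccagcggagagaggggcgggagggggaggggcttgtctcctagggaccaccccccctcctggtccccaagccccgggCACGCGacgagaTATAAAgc
Mnt: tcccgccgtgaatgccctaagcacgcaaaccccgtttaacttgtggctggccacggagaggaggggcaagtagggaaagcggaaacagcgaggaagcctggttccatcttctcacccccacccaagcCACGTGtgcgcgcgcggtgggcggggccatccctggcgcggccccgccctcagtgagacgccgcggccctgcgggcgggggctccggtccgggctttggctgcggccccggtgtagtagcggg
Mga: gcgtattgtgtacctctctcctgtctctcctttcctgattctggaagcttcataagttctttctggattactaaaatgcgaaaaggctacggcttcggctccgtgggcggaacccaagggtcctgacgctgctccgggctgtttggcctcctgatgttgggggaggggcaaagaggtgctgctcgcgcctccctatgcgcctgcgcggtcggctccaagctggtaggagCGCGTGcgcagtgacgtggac
The Mycl stretch holds CACGCG, whose first base lies at position -20 from the start site, and TATAAA at -8. The Mnt stretch holds CACGTG at -123, and the Mga stretch holds CGCGTG at -21. Searched on both strands, CACGTG was present in 6.02% of the 32851 promoter stretches of the table, CACGCG in 7.62% and TATAAA in 12.4%. Of the 8 members 7 had an entry, with 9 start sites in all, and CACGTG was found at 1 of them and CACGCG at 2. The looser pattern CANNTG, which includes CACGTG, was found at 5 of the 9 and in 66.2% of all stretches. A match in these letters describes the sequence and is not evidence of binding.

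Among the MYC proteins, Mycl RNA was lower at every dose from 10 ppm upward, and its values at 1 and 5 ppm overlapped those of clean air. Its log2 signals were 5.19, 5.46, 6.03, 5.49 and 6.03 on the arrays at 10 ppm, and 4.88, 5.22, 4.68, 5.00 and 4.96 at 20 ppm. They were 5.24, 5.49, 5.12, 5.22 and 4.76 at 40 ppm, and 5.59, 5.66, 5.87, 4.59 and 5.51 at 120 ppm. The arrays in clean air read 6.81, 7.28, 7.23, 7.08 and 6.90. Every array at 10, 20, 40 and 120 ppm thus lay below the lowest array at 0 ppm. The gap between the groups was 0.79, 1.60, 1.32 and 0.94 in that order of dose.

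At the lower doses Mycl read 6.91, 6.59, 7.15, 7.46 and 7.15 at 1 ppm, and 6.61, 7.23, 7.07, 8.22 and 7.62 at 5 ppm. The 5 ppm group held both the highest value of all 35 arrays and a value below every array at 0 ppm, and its SD of 0.61 was the widest of the 7 groups. The highest value, 8.22, came from replicate 4, whose nonspecific control of 4.57 was the lowest of all arrays. From 1 to 120 ppm, in order of dose, the differences from 0 ppm were -0.01, 0.29, -1.42, -2.12, -1.89 and -1.62 (SE 0.23 each). Mycl lay above the floor on 1, 0, 1 and 0 of 5 arrays in the 10, 20, 40 and 120 ppm groups, against 5 of 5 in clean air. It was therefore at least 2.02-fold lower at 10 ppm, at least 1.95-fold lower at 20 ppm and at least 2.09-fold lower at 40 ppm. At 120 ppm the floor, 6.71 to 7.36, lay around the clean-air signal, and no fold is given. Ordered by mean, the groups ran 5, 0, 1, 10, 120, 40 and 20 ppm, and the only neighbours whose arrays did not overlap were 1 and 10 ppm. Most arrays of the last 4 groups lay below the floor, so no order among those doses is read from them.

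**Figure D1:**
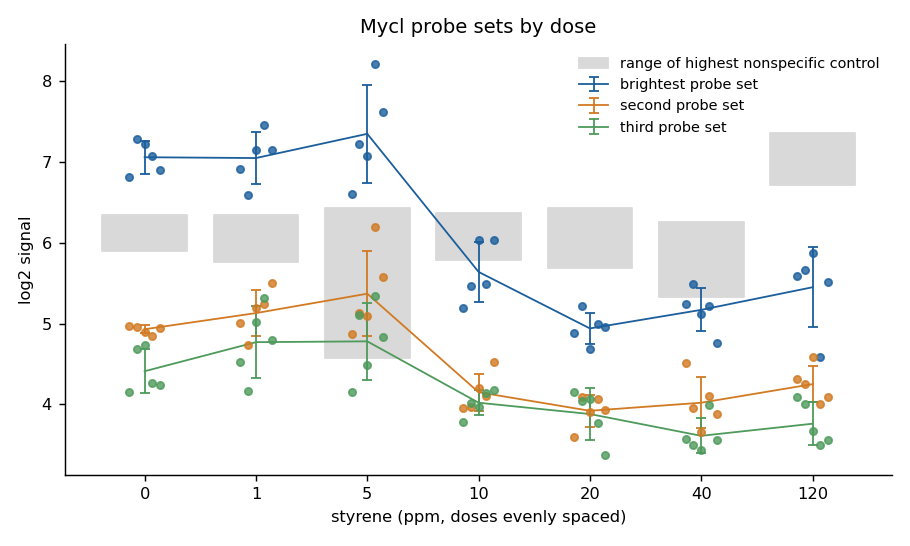
Log2 signal of the 3 Mycl probe sets on each array (points) by styrene dose in ppm, with group means and SD (lines and bars, n = 5). Doses are evenly spaced. Grey boxes give the range of the brightest nonspecific control in each group. The brightest probe set lies at 6.59 to 8.22 from 0 to 5 ppm and at 4.59 to 6.03 from 10 ppm upward.

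The other Mycl probe sets were dimmer, and each lay above the floor on 1 of 35 arrays, replicate 4 at 5 ppm, so they give no fold. As measured, the brighter of them differed from 0 ppm by -0.78, -1.01, -0.91 and -0.68 in the 10, 20, 40 and 120 ppm groups. The dimmer differed by -0.40, -0.54, -0.80 and -0.65. All 3 probe sets thus read lower at each dose from 10 ppm upward.

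Myc, the broadly expressed founder of the family, moved the opposite way and rose at every dose from 10 ppm. Its log2 signals were 6.99, 6.75, 6.74, 6.99 and 6.86 at 10 ppm, and 7.50, 7.35, 7.33, 7.09 and 7.39 at 20 ppm. They were 7.34, 7.43, 7.97, 7.33 and 6.99 at 40 ppm, and 7.29, 7.29, 7.12, 7.50 and 7.30 at 120 ppm. The arrays at 0 ppm read 6.57, 6.31, 6.10, 6.27 and 6.12. No array at 10 ppm or above overlapped with clean air. Myc rose at least 1.5-fold at 10 ppm (log2 difference 0.59, SE 0.14, limma adjusted p = 0.00317), at least 2.07-fold at 20 ppm (1.06, adjusted p = 1.17e-06) and at least 2.18-fold at 40 ppm (1.14, adjusted p = 3.61e-07). At 120 ppm the measured difference of 1.02 passed too (limma adjusted p = 5.9e-08), but 2 of 5 arrays lay above the floor there, against 4 of 5 in clean air. The floor itself averaged 7.16 at 120 ppm, against 6.08 at 0 ppm, so no fold is given for Myc at that dose.

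At 5 ppm Myc averaged 6.57 ± 0.09, against 6.28 ± 0.19 at 0 ppm (SD, n = 5 each), a difference of 0.30 that did not pass (limma adjusted p = 0.709). At 1 ppm the mean was 6.34 and the difference 0.06 (limma adjusted p = 0.987). The means ran in the order of dose up to 40 ppm. In that order the arrays of 20 and 10 ppm did not overlap, nor did those of 10 and 5 ppm, while those of 40 and 20 ppm, 5 and 1 ppm, and 1 and 0 ppm did. Between 120 and 40 ppm the difference was -0.11, with a 95% interval of -0.39 to 0.17 (limma adjusted p = 0.466).

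Mycn, the family member known from neural and embryonic tissue, lay below the floor at 0 ppm on all 5 arrays and above it on 3 of 35 arrays in all. Its differences from 0 ppm were between -0.04 and 0.12 from 1 to 40 ppm, and none passed in limma (smallest adjusted p = 0.732). At 120 ppm it read 6.29, 6.56, 6.11, 6.23 and 6.48, against 5.32, 5.09, 5.48, 5.40 and 5.61 at 0 ppm, and the groups did not overlap. The difference of 0.95 (SE 0.15) passed the test (limma adjusted p = 1.13e-06), as did that of 0.84 against 40 ppm (1.06e-05). No array at 120 ppm was above its own floor, which was itself higher there, so no fold is given. Of the other probe sets, also below the floor on all 35 arrays, 1 differed by 0.78 (limma adjusted p = 6.8e-07) and 1 by 0.16 (0.28) at 120 ppm.

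Among the antagonists, Mxd1, an early-described MAX partner of differentiating cells, did not pass the test at any dose. From 1 to 120 ppm, in order of dose, its means were 7.81, 7.65, 7.76, 7.52, 7.56 and 7.61, against 7.75 in clean air. Neighbouring groups in the order of these means all overlapped. The largest difference was -0.23 at 20 ppm, with a 95% interval of -0.52 to 0.07 (limma adjusted p = 0.368). The dimmest Mxd1 probe set, above the floor on 2 of 35 arrays, was 0.59 higher at 120 ppm (limma adjusted p = 0.000143), while the other differed by 0.11 (0.581), so the probe sets disagreed at that dose.

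Mxi1, a related repressor that recruits SIN3 corepressors, was lower on every array from 10 ppm upward. It read 7.87, 7.79, 8.04, 7.70 and 8.05 at 10 ppm, 8.06, 7.91, 7.76, 8.05 and 7.81 at 20 ppm, and 8.51, 8.22, 7.84, 8.09 and 8.25 at 40 ppm. At 120 ppm it read 7.15, 6.79, 7.53, 5.15 and 8.21, and at 0 ppm 8.74, 8.66, 8.74, 8.51 and 8.65. The groups did not overlap with clean air at any of these doses, although at 40 ppm the highest array and the lowest array at 0 ppm were both 8.51 to 2 decimals.

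For Mxi1 the differences were -0.77 at 10 ppm (limma adjusted p = 0.0591), -0.75 at 20 ppm (0.0645) and -0.48 at 40 ppm (0.295), with an SE of 0.27, so none of these passed. At 120 ppm Mxi1 fell at least 2.24-fold (-1.70, limma adjusted p = 1.26e-06). The SD at 120 ppm was 1.14, against 0.09 at 0 ppm, and this spread enters the shared SE. In a fit without the 120 ppm arrays the same differences passed, with adjusted p of 8.54e-07 at 10 ppm, 1.63e-06 at 20 ppm and 0.000587 at 40 ppm in limma. The second Mxi1 probe set differed by -0.64, -0.50 and -0.44 in the 10, 20 and 40 ppm groups (limma adjusted p = 0.0633, 0.169 and 0.252) and by -1.18 in the 120 ppm group (1.44e-05).

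Mnt, a MAX partner present in most cells, was lower at 20 ppm and higher at 120 ppm. It read 8.06, 7.79, 7.69, 7.94 and 8.14 at 20 ppm and 8.86, 9.10, 9.27, 8.95 and 9.06 at 120 ppm, against 8.18, 8.42, 8.26, 8.25 and 8.23 at 0 ppm. Both groups lay clear of clean air, by 0.03 at 20 ppm and by 0.44 at 120 ppm. Mnt fell 1.27-fold at 20 ppm (-0.34, SE 0.10, limma adjusted p = 0.0199). That call was lost without replicate 2 at 0 ppm (-0.30, adjusted p = 0.0664 in limma), replicate 2 at 20 ppm (-0.31, 0.0607) or replicate 3 at 20 ppm (-0.28, 0.0832). It was also lost without the 4 arrays high in hepatocyte markers (-0.31, limma adjusted p = 0.115). The same held with the mean of its probe sets (-0.2, limma adjusted p = 0.107) and with the poly-A level as a covariate (-0.28, 0.0589).

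At 10 ppm Mnt differed by -0.26 (limma adjusted p = 0.0919), with all 5 arrays below those at 0 ppm by 0.03 or more, and at 40 ppm by -0.09 (0.665). At 120 ppm it rose 1.72-fold (0.78, limma adjusted p = 2.34e-08) over clean air and 1.83-fold (0.88, 2.69e-09) over 40 ppm. The second Mnt probe set was below the floor on all 35 arrays and was 0.37 higher at 120 ppm (limma adjusted p = 0.00165).

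Mga, the largest of the MAX partners and part of a polycomb complex, was lower at the highest doses. It read 5.25, 5.78, 5.38, 5.72 and 4.98 at 40 ppm and 4.49, 5.50, 4.77, 5.00 and 5.22 at 120 ppm, against 6.05, 6.44, 5.76, 6.34 and 6.05 at 0 ppm. At 40 ppm 4 of 5 arrays lay below all of those in clean air, and at 120 ppm 5 of 5 did. Mga fell at least 1.05-fold at 40 ppm (-0.70, SE 0.17, limma adjusted p = 0.00317), where it was above the floor on 1 of 5 arrays, against 3 of 5 at 0 ppm. It fell at 120 ppm too (-1.13, limma adjusted p = 2.73e-07), with no fold because all 5 arrays lay below the floor. At 20 ppm the difference was -0.41 (limma adjusted p = 0.102). The second Mga probe set gave -0.70 at 40 ppm (limma adjusted p = 0.00133) and -1.53 at 120 ppm (3.88e-11), and the dimmest, below the floor on all 35 arrays, gave -0.12 (0.812) and 0.01 (0.973).

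**Figure D2:**
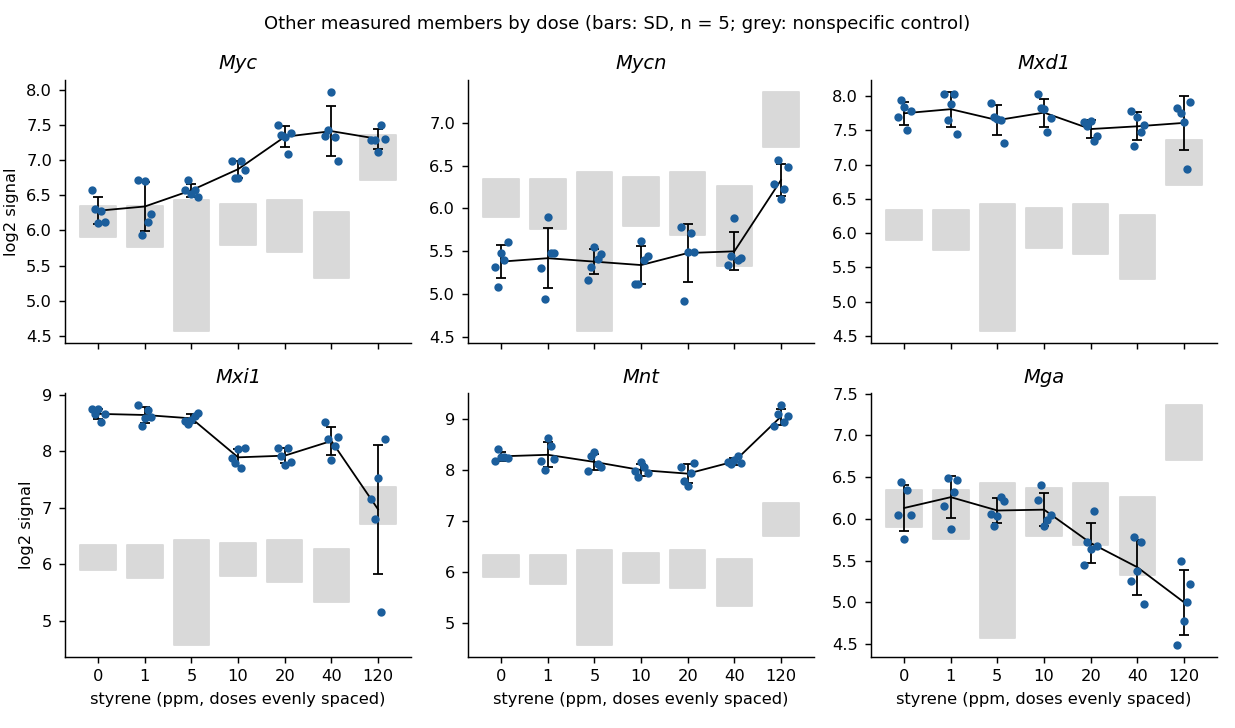
Log2 signal of the 6 other measured genes on each array (points) by styrene dose in ppm, evenly spaced, with group means and SD (bars, n = 5). Grey boxes give the range of the brightest nonspecific control. Myc climbs to a mean of 7.41 at 40 ppm, Mxi1 lies lower from 10 ppm upward, and Mycn and Mnt stand apart at 120 ppm.

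Counted over the 6 tested members, 0 passed at 1 ppm, where 0% of all genes were called in limma (1190 genes had an unadjusted p under 0.05), and 0 at 5 ppm, where 1.16% were. At 10 ppm 1 passed, Myc, against 11.8% of all genes. At 20 ppm 2 passed, Myc upward and Mnt downward, against 13.2% of all genes. At 40 ppm 2 passed, Myc upward and Mga downward, against 12.7%. At 120 ppm 5 passed, 3 upward (Myc, Mycn, Mnt) and 2 downward (Mxi1, Mga), where 74.8% of all genes were called. A share of that size at 120 ppm is close to the background.

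Between 120 and 40 ppm 4 of the 6 passed, Mycn and Mnt higher and Mxi1 and Mga lower, where 70.9% of all genes were called in limma. Arrays did not overlap with clean air for 3, 3, 2 and 5 members in the 10, 20, 40 and 120 ppm groups, against 13.7%, 15.8%, 13.1% and 49.7% of all genes. In the fit without the 120 ppm arrays 2, 3 and 3 passed in the 10, 20 and 40 ppm groups, with Mxi1 added each time, where 16.8%, 19% and 18.1% of all genes were called. With a loess normalization of all arrays, the differences at 120 ppm were 1.56 for Myc, 1.23 for Mnt and -0.66 for Mga. With the poly-A level as a covariate 0 of the 6 members passed at 120 ppm. The share of all genes called in that fit is not given here. Poly-A levels at 120 ppm do not overlap those of the other arrays, so that fit cannot fully separate them from the dose.

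**Figure D3:**
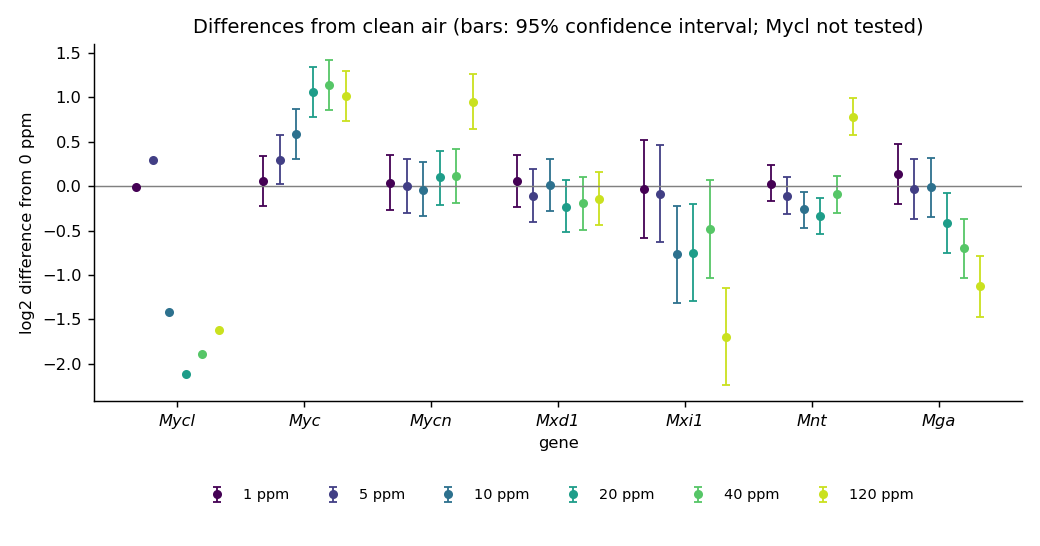
Log2 difference of each dose from 0 ppm for the 7 measured genes (5 arrays per group), with 95% confidence intervals from limma for the 6 tested genes and none for Mycl. Mycl runs from -0.01 at 1 ppm to -2.12 at 20 ppm, and Myc from 0.06 at 1 ppm to 1.14 at 40 ppm.

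Genes that MYC is known to activate were read from a list of 40, of which 38 were measured. This list, like the other gene lists below, was chosen with earlier results of these data known. The shares called in these lists are therefore a description beside all genes and carry no test of the list. At 10 ppm 13 of the 38 rose and 0 fell (34.2% higher, against 5.17% of all genes, while 6.62% of all genes fell). At 20 ppm 20 rose and 0 fell (52.6% higher, against 6.45%, while 6.74% of all genes fell). At 40 ppm 17 rose and 1 fell (44.7% higher, against 7.69%, and 2.63% lower, against 5.04%). At 120 ppm 22 rose and 9 fell (57.9% higher, against 42.9%, and 23.7% lower, against 31.9%). At 1 and 5 ppm 0 of 38 passed. From 1 to 120 ppm, in order of dose, the median difference of the list was -0.02, 0.08, 0.28, 0.37, 0.30 and 0.50. Over all genes the medians were -0.01, 0, -0.02, -0.02, 0.01 and 0.15. At 10 ppm 8 rose without the 4 arrays high in hepatocyte markers, and with a fold of at least 1.5 as well 5, 10 and 7 passed in the 10, 20 and 40 ppm groups. The shares of all genes under these stricter rules are not given, so these counts are not set against a background.

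Several of these targets make polyamines, nucleotides and ribosomes. Srm, spermidine synthase, averaged 8.28, 8.22, 8.30 and 9.51 in the 10, 20, 40 and 120 ppm groups, against 7.22 in clean air. It rose 2.08-fold at 10 ppm (limma adjusted p = 4.16e-06), 2.00-fold at 20 ppm (1.04e-05), 2.12-fold at 40 ppm (3.75e-06) and 4.88-fold at 120 ppm (7.1e-15). Its level was thus about the same from 10 to 40 ppm. Odc1, another polyamine gene of the list, did not pass at 10 ppm (0.11, limma adjusted p = 0.747) or 20 ppm (0.23, 0.348). Cad, which opens pyrimidine synthesis, rose 1.69-fold at 10 ppm (0.76, SE 0.12, limma adjusted p = 3.01e-05). Bysl, a factor for the small ribosomal subunit, rose 1.93-fold at 40 ppm (0.95, SE 0.15, limma adjusted p = 1.8e-05) and 4.51-fold at 120 ppm (2.17, 1.13e-14).

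Rrp12, another ribosome assembly factor, rose at least 1.29-fold at 20 ppm (0.86, SE 0.14, limma adjusted p = 5e-05) and at least 1.52-fold at 40 ppm (1.09, 1.37e-06). Nop58, a core protein of small nucleolar RNA complexes, rose at least 1.49-fold at 10 ppm (1.10, SE 0.36, limma adjusted p = 0.0403) and at least 2.04-fold at 20 ppm (1.55, 0.00271). The single target that fell at 40 ppm was Hspe1, the mitochondrial co-chaperonin, at 10.37 against 10.74 at 0 ppm (-0.38, SE 0.12, limma adjusted p = 0.036). At 120 ppm the direction differed between targets. Rrp9, a ribosomal RNA processing factor, rose 4.56-fold (2.19, SE 0.15, limma adjusted p = 1.31e-14). The RNA helicase Ddx18 fell at least 1.67-fold (-1.58, limma adjusted p = 6.18e-13), the nucleolar protein Nolc1 at least 1.11-fold (-1.20, 7.69e-10) and the methyltransferase Prmt3 at least 1.12-fold (-1.06, 2.76e-08).

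Genes that MYC is known to repress were 8, all measured. At 10 ppm 1 rose and 2 fell, at 20 ppm 2 rose and 2 fell, at 40 ppm 4 rose and 1 fell, and at 120 ppm 5 rose and 2 fell. Of all genes 5.17% rose and 6.62% fell at 10 ppm, 6.45% and 6.74% at 20 ppm, 7.69% and 5.04% at 40 ppm, and 42.9% and 31.9% at 120 ppm. With 8 genes, each is 12.5% of the list. The list's medians were -0.16, 0.10, 0.41 and 0.47 in that order, and at 1 and 5 ppm 0 of 8 passed. Gadd45g, a stress-induced growth arrest gene, averaged 8.83, 9.03, 9.07 and 9.37 in the 10, 20, 40 and 120 ppm groups, against 7.63 in clean air. It rose 2.71-fold at 40 ppm (1.44, SE 0.17, limma adjusted p = 2.48e-07). Cdkn1b, the cell cycle inhibitor p27, fell 1.38-fold at 10 ppm (-0.47, SE 0.12, limma adjusted p = 0.00511), 1.43-fold at 20 ppm (0.0018) and 1.38-fold at 40 ppm (0.00518). Ndrg2 fell by 0.74 at 10 ppm (SE 0.14, limma adjusted p = 0.000412). The inhibitors Cdkn2b (0.56, limma adjusted p = 0.000263) and Cdkn1a (0.68, 0.0459) rose at 40 ppm.

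The wider network, 30 further partners, cofactors and regulators of MYC proteins, had 25 measured genes. Of these 1 rose and 0 fell at 10 ppm, 1 rose and 2 fell at 20 ppm, 3 rose and 0 fell at 40 ppm, and 10 rose and 12 fell at 120 ppm. In all, 4%, 12%, 12% and 88% passed in that order of dose, against 11.8%, 13.2%, 12.7% and 74.8% of all genes. At 120 ppm 40% rose and 48% fell, against 42.9% and 31.9% of all genes. In the same order of dose the list's medians were 0.05, 0.05, 0.06 and -0.11. At 1 and 5 ppm 0 of 25 passed. The shares from 10 to 40 ppm were near or below those of all genes. At 20 and 40 ppm 1 passed without the 4 arrays high in hepatocyte markers, and the share of all genes in that fit is not given.

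Aurka, the mitotic kinase that stabilises MYCN protein, rose at 10 ppm (0.80, SE 0.21, limma adjusted p = 0.0109), at 20 ppm by at least 1.14-fold (1.25, 8.09e-05) and at 40 ppm (1.07, 0.000669). It lay below the floor on all 5 arrays at 0 ppm. Mxd4, a further MXD repressor, fell 1.26-fold at 20 ppm (-0.33, SE 0.11, limma adjusted p = 0.0334). Mlxipl, a glucose-responsive relative, fell at 20 ppm below the floor (-0.53, 0.0252 in limma, adjusted). At 40 ppm Wdr5, a chromatin cofactor of MYC, rose 1.25-fold (0.32, limma adjusted p = 0.0223), and Mxd3 rose below the floor (0.45, 0.0202). At 120 ppm the kinase Pim1 rose (1.27, limma adjusted p = 1.52e-10), with 3 of 5 arrays above the floor and no fold given, and Zbtb17, the MYC-binding transcription factor MIZ1, rose 2.33-fold (1.22, 4.27e-11). The ubiquitin ligase Huwe1 fell at least 2.68-fold at 120 ppm (-2.02, limma adjusted p = 1.63e-14).

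**Figure D4:**
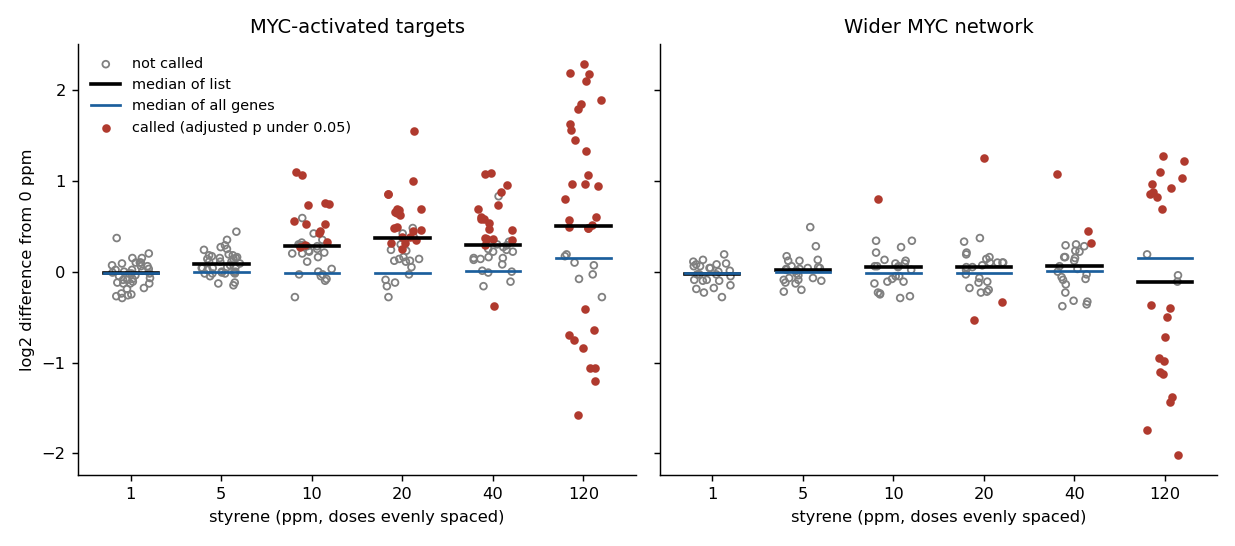
Log2 difference from 0 ppm of each gene (points) of the MYC-activated targets (38 genes) and the wider network (25 genes) by styrene dose in ppm, evenly spaced. Filled points passed the test, and bars give the median of the list and of all 17097 genes. Both lists were chosen with earlier results of these data known. The median of the targets is 0.28, 0.37 and 0.30 at 10, 20 and 40 ppm, and that of the wider network lies at 0.05 or 0.06.

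Markers of cell types were read beside Mycl. Of 14 measured dendritic cell markers 3 rose and 0 fell at 10 ppm, 1 rose and 2 fell at 20 ppm, and 0 rose and 3 fell at 40 ppm. That is 21.4% higher at 10 ppm (5.17% of all genes), 7.14% higher and 14.3% lower at 20 ppm (6.45% and 6.74%), and 21.4% lower at 40 ppm (5.04%). At 0 ppm 8 of the 14 had a mean below the floor, which limits what a fall in them could show. The mean over the list was 5.98 to 6.32 on the 10 ppm arrays, 5.73 to 5.97 on the 20 ppm arrays and 5.67 to 5.96 on the 40 ppm arrays, against 5.85 to 6.05 in clean air. The lectin Cd209a fell at least 1.75-fold at 40 ppm (-1.07, SE 0.20, limma adjusted p = 0.000331), and it differed by 0.24 at 10 ppm (0.567). Flt3, the receptor that drives dendritic cell development, fell at 20 ppm (-0.44, limma adjusted p = 0.0334) and 40 ppm (-0.54, 0.00874), with every array of these groups and of clean air below the floor. Cadm1, the brightest marker of the list, did not pass at 10 ppm (-0.36, limma adjusted p = 0.0913), 20 ppm (-0.36, 0.0837) or 40 ppm (-0.34, 0.115). These 3 markers were picked by brightness and by the size of the difference at 40 ppm. The markers that rose at 10 and 20 ppm are not among them and are not named here. The largest upward difference in the list was 1.09 at 10 ppm and 0.80 at 20 ppm. The part of dendritic cells in the Mycl result was not tested.

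Of 8 measured neuroendocrine markers 7 had a mean below the floor at 0 ppm, and 1 rose and 1 fell at each of 10, 20 and 40 ppm. That is 12.5% in each direction, from 1 gene, where 5.04% to 7.69% of all genes were called in a direction. Uchl1, a ubiquitin hydrolase, rose at least 2.85-fold already at 5 ppm (2.11, limma adjusted p = 7.43e-14). It was the only 1 of the 8 markers to pass at that dose (12.5%, against 1.16% of all genes). At 10 ppm Uchl1 rose at least 2.52-fold (1.93, limma adjusted p = 4.72e-13), and Ddc, which makes amine transmitters, fell at least 1.16-fold (-0.86, 0.00554). Of 5 club cell markers 3 fell at 10 ppm, 3 at 20 ppm and 4 at 40 ppm, and 0 rose. The shares that fell were 60%, 60% and 80%, against 6.62%, 6.74% and 5.04% of all genes. Their list mean was 10.18 to 10.34 on the 10 ppm arrays, 9.95 to 10.24 on the 20 ppm arrays and 9.96 to 10.09 on the 40 ppm arrays, against 10.53 to 10.71 in clean air. The mean of the list, but not every marker in it, was thus lower than in clean air, and the part of club cells in the Mycl result was not tested. Cyp2f2, the main club cell cytochrome, fell 1.58-fold at 20 ppm (-0.66, SE 0.08, limma adjusted p = 3.97e-07), while the secretoglobin Scgb1a1 differed by -0.09 (0.268).

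The genes whose profiles lay nearest to that of Mycl were found by the root mean square difference between group means, each gene centred on its own mean over the 7 dose groups, among 8910 genes whose mean lay above the floor in at least 1 group, provisional names left out. Their values describe a likeness in 7 means from the same arrays and carry no test. The nearest was Igfbp3, an insulin-like growth factor binding protein, at 0.30 log2 units. From 0 to 120 ppm, in order of dose, it averaged 8.66, 9.09, 8.55, 7.50, 6.89, 7.12 and 7.60.

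Next came Cyp4f15, a fatty acid hydroxylase (0.33), the endosome and lysosome gene Elapor1 (0.34), the signalling adaptor Traf1 (0.34) and the matrix protein Chad (0.35). Cyp4f15 passed the filter through the 5 ppm group alone, where it averaged 5.81 and the floor 5.73, and its means of 5.99 at 0 ppm and 4.47 at 20 ppm lay below floor means of 6.08 and 6.10. Its likeness is therefore read mostly from signals that are not above background. The median over all candidates was 0.98. Without the 120 ppm group Chad was the nearest, at 0.24. Within the family the distances from Mycl were 0.68 for Mxi1, 0.72 for Mga, 0.88 for Mxd1, 1.01 for Mnt, 1.10 for Mycn and 1.37 for Myc, which runs the opposite way.

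**Figure D5:**
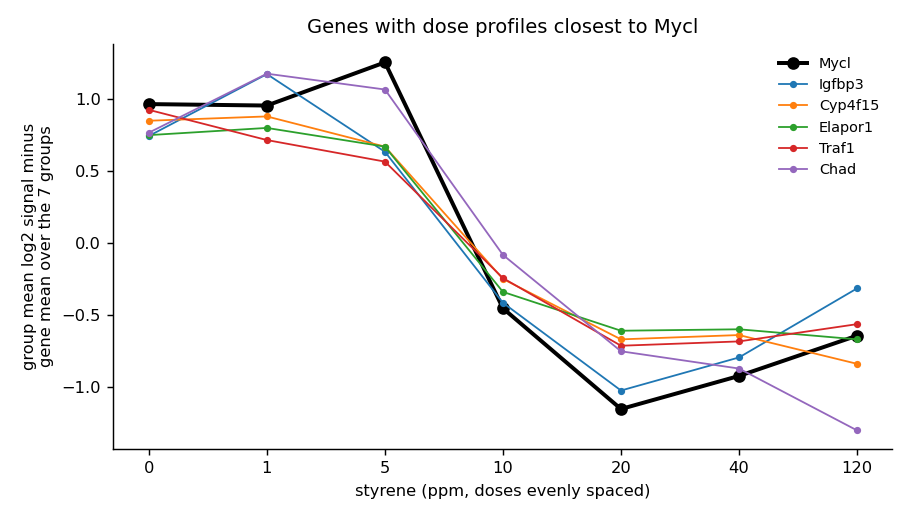
Group mean log2 signal of Mycl and of the 5 genes nearest to it by profile, each minus its own mean over the 7 groups, by styrene dose in ppm, evenly spaced (5 arrays per point). All 6 lie above their mean from 0 to 5 ppm and below it from 10 ppm upward, with Cyp4f15 below the floor in every group but 5 ppm and Mycl mostly below it from 10 ppm.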

How the data were processed

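Per the labels, RNA from whole mouse lung was hybridised to 35 single-colour Affymetrix arrays. The authors deposited normalized signals per probe set on the log2 scale, and RMA and Partek are named, per the submitters' processing notes, with no version or setting. Background correction and scan batches were not stated. The values are not counts, and precision is limited by how many arrays there are. Labels call the 5 arrays of a dose biological replicates.

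The annotation used here gave 1 symbol for 28898 probe sets, several for 551, and none for 15588. The brightest of a gene's probe sets stood for it (17097 genes). Group means were estimated jointly over the 35 arrays by lmFit and eBayes (limma 3.58.1, R 4.3.3), which left 28 degrees of freedom plus 4.62 from the prior, with two-sided tests, Benjamini-Hochberg adjustment over all genes and a threshold of 0.05. Tabular input used data.table (version 1.17.8), and plotting used matplotlib 3.10.9 (Python 3.11.15, pandas 2.3.3, numpy 2.4.6).

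The members and gene lists were chosen with earlier results of these data known. Named genes were all members, up to 3 called genes of each list per comparison and direction with the largest change, the brightest marker of a cell type and the 2 that differed most at 40 ppm, and the 5 genes nearest to Mycl. Fewer of these are printed for some lists. The test was checked on simulated data for 20 ppm against 0 ppm over 17097 genes. It called 16% of 50 genes set to 1.25-fold, 70% of those at 1.5-fold, 96% at 2-fold and 100% at 4-fold, and 10 of 16897 unchanged genes. Alternatives were other probe sets, filters, thresholds, variance models, normalizations, covariates and subsets of arrays. A loess normalization and leaving out the 4 arrays high in hepatocyte markers (list mean over 6) were chosen after seeing the data.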

Additional observations from a re-analysis of the deposited data

Results flagged for a closer look

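Among 49 groups of 5 arrays (7 genes at 7 doses), 2 held an array far from the others by Dixon's ratio (critical value 0.71), and chance alone marks about 1 in 20 groups. For Mycl at 120 ppm, replicate 4 read 4.59, against 5.51 for the next array and 5.87 for the highest. For Mycn at 40 ppm, replicate 3 read 5.89, against 5.44 for the next array and 5.34 for the lowest.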

How the results depend on the processing

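With an array left out, differences of single tested members kept their call, or lack of one, 357 times and lost a call 3 times. Under the other alternatives they kept it 526 times, gained a call 28 times and lost a call 9 times, and 1 reversed. Mxd1 at 120 ppm was 0.35 higher after loess normalization (limma adjusted p = 0.0263), where it had differed by -0.14, and the cause was not tested. The members called at 10 ppm numbered 2 with all probe sets averaged, without dim genes, with repeated quantile or loess normalization, without the 120 ppm group, or with the poly-A covariate. They numbered 3 at an adjusted p of 0.1, with array weights, or in a fit of only the 2 groups. At 20 ppm they numbered 1 with a fold of at least 1.5 and without the arrays high in hepatocyte markers, 4 with array weights, and 1 to 2 with each array left out. With the poly-A covariate 0 members passed at 120 ppm and 0 between 120 and 40 ppm. The poly-A levels of the 120 ppm arrays and of the others do not overlap, so this covariate and the dose cannot be fully told apart there.

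MYC-activated targets called were 5, 10 and 7 in the 10, 20 and 40 ppm groups with a fold of at least 1.5. At 10 ppm they were 25 with array weights and 8 without the arrays high in hepatocyte markers. With each array left out they numbered 10 to 14, 16 to 22, 15 to 18 and 30 to 31 from 10 to 120 ppm in order of dose. Wider network genes called at 10 ppm were 2 with the mean of probe sets, at an adjusted p of 0.1, without the 120 ppm group or with the poly-A covariate, and 4 with array weights. At 20 ppm they were 1 with a fold of at least 1.5 or without the arrays high in hepatocyte markers, 6 with array weights and 5 without the 120 ppm group, and 1 to 3 with each array left out. At 40 ppm they were 1 with a fold of at least 1.5 or without the arrays high in hepatocyte markers, and 5 at an adjusted p of 0.1 or with loess. They were 13 with array weights, 7 without the 120 ppm group, 6 with the poly-A covariate, and 1 to 4 with each array left out. At 120 ppm they were 8 with the poly-A covariate. The causes of these shifts were not tested, and no share of all genes is set beside these counts.

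With the mean of its 3 probe sets Mycl differed by -0.87, -1.22, -1.20 and -0.98 in the 10, 20, 40 and 120 ppm groups. At 120 ppm it differed by -1.22 with quantile and -1.11 with loess normalization. With each array left out, Mycl differed by -1.52 to -1.31, -2.19 to -2.05, -1.98 to -1.79 and -1.72 to -1.40 in those groups. Recomputed under the alternatives other than leaving out an array, the called counts and Mycl differences stayed near their value 352 times and moved 43 times. Centring, quantile and loess scaling moved the median of all genes by at most 0.08.

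Replicate numbers were not used to pair the arrays in the main fit. Same-numbered arrays of different doses had correlations of -0.508 to 0.639 in their deviations from group means (105 pairs, 53 over 0.1). The mean was 0.0955, against -0.0241 for arrays with different numbers, and 17 of 35 arrays correlated best with their own number. Whether equal numbers mark a shared batch was not tested. With the replicate block 2 members were called at 10 ppm (Mxi1 adjusted p = 0.0484), and Mga passed at 20 ppm (0.0371 in limma). Signals below the brightest nonspecific control limit Mycl from 10 ppm upward, and Mycn and Mga in all groups. Mga lay above that control on 16 of 35 arrays in all, and on 3 of 5 at 0 ppm. From 20 ppm upward it did so on at most 1 of 5 arrays per group. The same limit holds for Myc and Mxi1 at 120 ppm, where each lay above the control on 2 of 5 arrays.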

Other observations

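Several lists of cell type markers that the results above do not describe held called genes at 40 ppm, where 7.69% of all genes rose and 5.04% fell. Of 8 alveolar macrophage markers 1 rose and 3 fell, and the scavenger receptor Marco rose 1.59-fold (0.67, SE 0.14, limma adjusted p = 0.000766), while the transcription factor Pparg fell at least 1.25-fold (-0.61, 0.00236). Of 6 endothelial markers 2 fell, and their list mean ran from 10.01 to 10.03, against 10.20 to 10.38 at 0 ppm. Of 5 T cell markers 2 fell, with a list mean of 5.02 to 5.80, against 5.48 to 6.15 at 0 ppm. Of the 4 alveolar type 2 markers 0 passed at 40 ppm, and of the 5 alveolar type 1 markers 1 rose.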
